A study of Mus musculus with 12 samples.

Results

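Smooth muscle cells and pericytes, together called mural cells, wrap the arteries, arterioles and capillaries of the heart. The genes described here are 10 markers of these cells, chosen by name: Acta2, Tagln, Myh11, Cnn1 and Smtn of the contractile apparatus, and Pdgfrb, Rgs5, Cspg4, Notch3 and Abcc9 of mural cell receptors and signalling. All 10 of 10 were among the 29564 genes of the deposited table, and all 10 passed the filter on low counts, which left 14333 genes for testing. Polyadenylated RNA of the whole left ventricle was sequenced from 12 mice of strain C57BL6 with genotype WT, 4 to a group and each mouse its own library. Mice of the Control-Veh group (libraries C1 to C4) received vehicle and are labelled non-failing. Mice of the HFpEF-Veh group (V1 to V4) received vehicle after a high-fat diet (HFD) combined with L-NAME, which together model a failing heart whose ejection fraction is preserved (HFpEF). Mice of the HFpEF-TYA-018 group (T1 to T4) had the same diet and L-NAME and received oral TYA-018, which inhibits HDAC6, at 15 mg/kg. By its title, the series follows a single dose, whereas the protocol in the labels gives repeated daily doses. The study describes sequencing of hearts collected hours after a single dose of TYA-018 or vehicle, which matches the title. Its long-term treatment was sequenced in larger groups. The HFpEF-TYA-018 values are therefore read here as an early response, although the conflict with the labels remains unexplained. The labels gave neither sex nor age, and the study's methods describe male C57BL/6J mice.

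Contractile smooth muscle cells hold a cytoskeleton of smooth muscle actin and myosin that sets the width of a vessel, and pericytes sit on capillaries inside the basement membrane. Both depend on platelet-derived growth factor (PDGF) released by endothelial cells and sensed by the receptor Pdgfrb, and on Notch signals from the same cells sensed by Notch3. L-NAME, used to make the model, blocks nitric oxide synthases, and nitric oxide is the endothelial signal that relaxes smooth muscle. Bulk tissue was sequenced, so a change in the number of mural cells and a change in RNA per cell cannot be told apart in any value below.

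Of the 10 genes, Rgs5 alone passed the test in any of the 3 comparisons. The Rgs5 level exceeded that of Control-Veh by 26.7% in HFpEF-Veh (95% confidence interval of the log2 fold change 0.18 to 0.50, n = 4), and was 26.3% lower in HFpEF-TYA-018 than in HFpEF-Veh (-0.60 to -0.28). The other 9 genes passed the test in none of the 3. The first 2 comparisons share the 4 HFpEF-Veh libraries, so the values for one are not independent of those for the other. The share of all tested genes that passed (edgeR quasi-likelihood test, Benjamini-Hochberg adjusted p under 0.05 over 14333 genes) was 21.2% in HFpEF-Veh against Control-Veh, 19.3% in HFpEF-TYA-018 against HFpEF-Veh and 5.86% in HFpEF-TYA-018 against Control-Veh. Against these shares, 1 of 10, 1 of 10 and 0 of 10 genes passed, which is below the background in the first 2 comparisons and does not set the 10 genes apart in any.

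Rgs5 encodes a regulator of G protein signalling that shortens the response to vasoconstrictor receptors, and it is among the most used markers of pericytes. The gene lies on chromosome 1 of GRCm38, from 169655501 to 169695813 on the plus strand, and encodes a protein. The 250 bases before its start are shown because it was the gene that passed the test, and those before the start of Acta2 are shown beside them as the best-known contractile gene. Both come from RefSeq on GRCm38.p6 and are written 5′ to 3′ on the gene's own strand. Capitals mark TATATA in Rgs5, a run of letters chosen after the sequence was read. In Acta2 they mark TGGGAA, the core bound by the Notch effector RBPJ, and near matches to the CArG box, the element bound by serum response factor (CC and GG around a run of A and T), with 1 base of the run being C or G. This looser form was added after the sequences were read. RefSeq places the start of Acta2 farther inside the gene than GENCODE M21, so 217 of the 250 bases shown for Acta2 lie within the gene as placed below.
Rgs5, plus strand, chr1:169655251-169655500: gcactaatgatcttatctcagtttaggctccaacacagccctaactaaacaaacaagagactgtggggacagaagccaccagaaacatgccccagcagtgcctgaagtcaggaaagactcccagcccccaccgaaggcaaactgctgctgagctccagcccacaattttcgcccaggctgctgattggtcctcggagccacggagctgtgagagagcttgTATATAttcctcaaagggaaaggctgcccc
Acta2, minus strand, chr19:34255374-34255623: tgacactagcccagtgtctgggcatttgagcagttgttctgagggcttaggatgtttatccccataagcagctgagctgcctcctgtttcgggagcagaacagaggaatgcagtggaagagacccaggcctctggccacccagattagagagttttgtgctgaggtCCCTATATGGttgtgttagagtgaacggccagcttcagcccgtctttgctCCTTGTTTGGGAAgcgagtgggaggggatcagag
Counting back from the base before the start as -1, TATATA began at position -30 in Rgs5, and 1.35% of all 32851 promoters of the table held these letters within 50 bases of the start. In Acta2, CCCTATATGG began at position -84 and CCTTGTTTGG at -34, and TGGGAA began at -27 and shared its first letters with the second of these. A match is a description of the letters and not evidence of binding.

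The Rgs5 level in CPM, the count relative to library size after TMM scaling, was 493, 507, 449 and 451 in the libraries C1 to C4. In V1 to V4 it was 606, 599, 602 and 598. The HFpEF-TYA-018 libraries held 449, 447, 388 and 490.1 in the order T1 to T4. Every HFpEF-Veh library lay above every library of the other 2 groups, and the 4 HFpEF-Veh libraries lay close together. Of all tested genes, 23.5% had libraries that did not overlap in HFpEF-Veh against Control-Veh, and 25.1% in HFpEF-TYA-018 against HFpEF-Veh. The group means were 475 ± 29.6, 601 ± 3.29 and 443 ± 42.1 CPM (SD, n = 4). The log2 fold change in HFpEF-Veh against Control-Veh was 0.34 ± 0.073 (SE), with a 95% confidence interval of 0.18 to 0.50 and an adjusted p of 0.00769 (edgeR). In HFpEF-TYA-018 against HFpEF-Veh it was -0.44 ± 0.073, with an interval of -0.60 to -0.28 and an adjusted p of 0.00286. In HFpEF-TYA-018 against Control-Veh it was -0.10 ± 0.073, with an interval of -0.26 to 0.06 and an adjusted p of 0.470. By its p the gene ranked 990 and 287 of 14333 in the first 2 comparisons, so many genes differed more firmly. Of all tested genes, 10.9% passed as higher and 10.3% as lower in the first comparison, and 8.93% as higher and 10.4% as lower in the second.

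**Figure D1:**
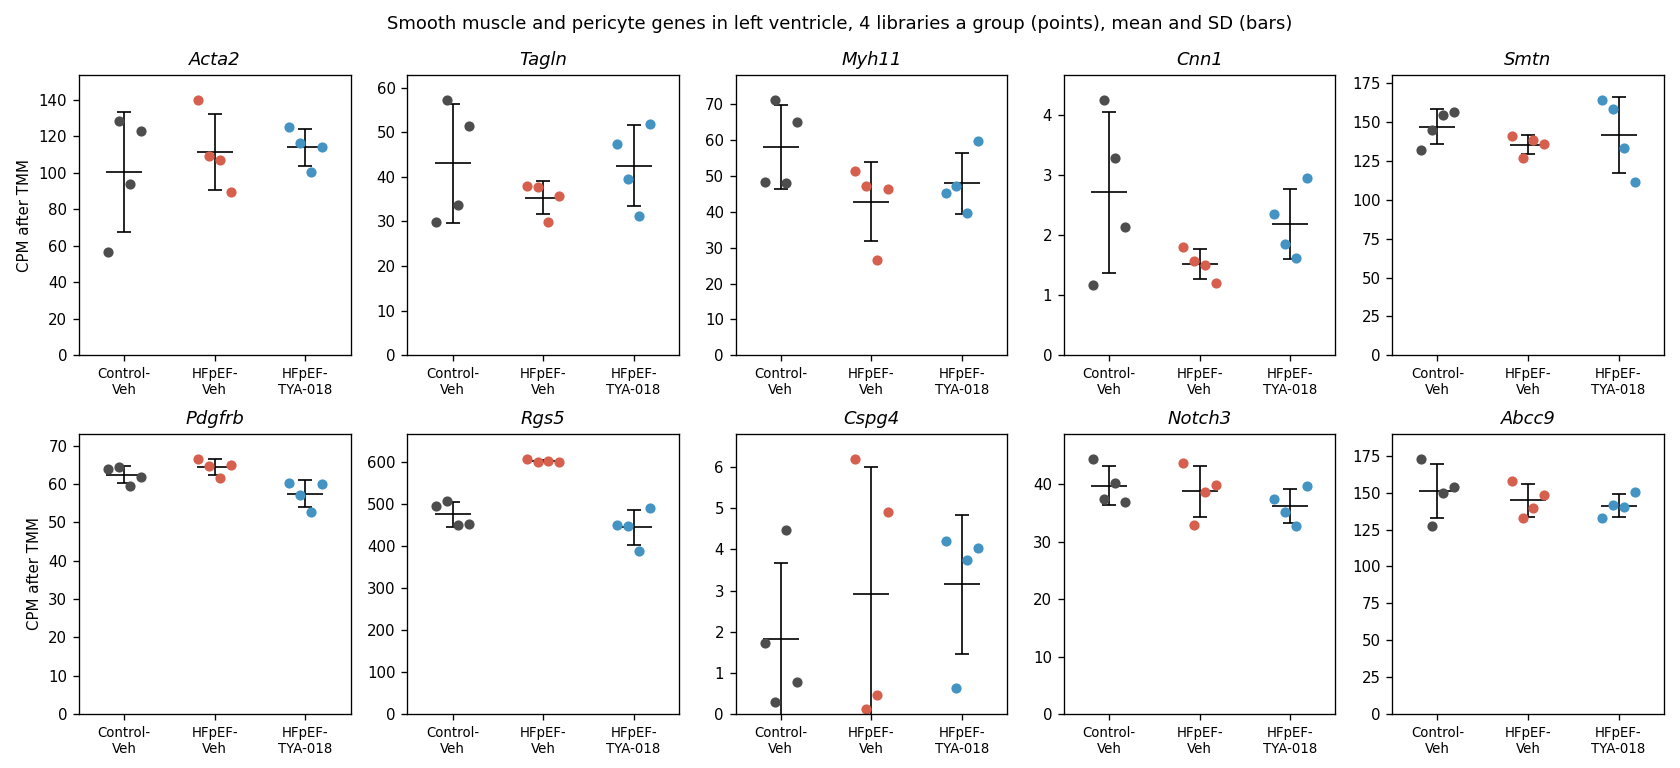
Level of each of the 10 genes in CPM after TMM scaling (vertical axis, from 0) in each library (points) of each of the 3 groups, with the mean and SD of 4 libraries (bars, drawn down to 0 at the lowest). The 4 HFpEF-Veh points of Rgs5 sit between 598 and 606 CPM, above all others, while the groups overlap for the other 9 genes in HFpEF-Veh against Control-Veh. In that comparison 23.5% of all tested genes have libraries that do not overlap.

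The Rgs5 result depended on the scale. In TPM, the transcript share of a library, which divides by an effective length that salmon estimates in each library, Rgs5 was between 39.9 and 47.6 in Control-Veh, between 39.6 and 50.1 in HFpEF-Veh and between 36.2 and 55.5 in HFpEF-TYA-018, and the groups overlapped. The effective length of Rgs5 was between 3545 and 4174 bases in Control-Veh, 3840 and 4749 in HFpEF-Veh, and 4030 and 4161 in HFpEF-TYA-018. Its longest annotated transcript in GENCODE M21 has 4096 bases, so some of these lengths exceed it in each group. With log2(TPM + 1) and limma, the log2 fold changes were 0.05 (adjusted p 0.852) and -0.08 (adjusted p 0.664), and the median of all tested genes moved to -0.07 and 0.17, so Rgs5 lay 0.12 above and 0.25 below that median. When TPM was restricted to detected protein-coding genes without the mitochondrially encoded ones and rescaled, as the study's methods do, limma gave Rgs5 values of 0.32 (adjusted p 0.0520) and -0.54 (adjusted p 0.0112), close to those in CPM. With effective length as an offset in edgeR, the first comparison no longer passed (0.28, adjusted p 0.101) and the second did (-0.53, adjusted p 0.0114).

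A ratio of 2 genes within a library needs no scaling between libraries. Rgs5 gave 7.30 to 7.86 counts for each count of Pdgfrb in Control-Veh, 9.11 to 9.76 in HFpEF-Veh and 7.37 to 8.17 in HFpEF-TYA-018, and HFpEF-Veh overlapped neither other group. Against Notch3 the ratios were 11.1 to 13.6, 13.9 to 18.2 and 11.8 to 12.7. Against Abcc9 they were 2.86 to 3.97, 3.83 to 4.52 and 2.77 to 3.39, and here the ranges of HFpEF-Veh and Control-Veh overlapped. Unequal change of a pair does not say which of them changed. In TPM the ratio to Pdgfrb was 9.47 to 10.4, 9.51 to 12.6 and 8.42 to 9.44, so the first 2 groups overlapped on that scale and the last 2 did not. Rgs5 was the gene that passed the test, and the count ratios use the counts that were tested, so they are not separate support. The share of all tested genes with a separated ratio was not computed. In CPM 23.5% of all tested genes separated HFpEF-Veh from Control-Veh, and 25.1% separated HFpEF-TYA-018 from HFpEF-Veh.

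**Figure D2:**
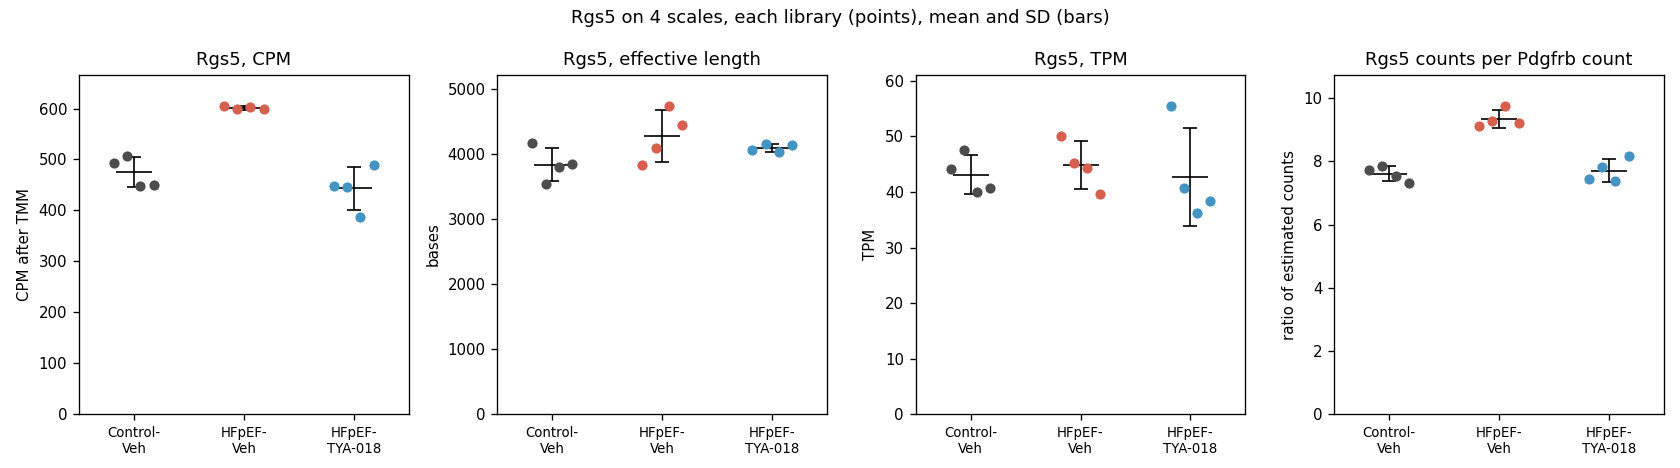
Rgs5 in each library (points; bars give mean and SD, n = 4) as CPM, as effective length in bases, as TPM and as the ratio of its estimated count to that of Pdgfrb, with every axis from 0. HFpEF-Veh stands above both other groups in CPM and in the ratio (9.11 to 9.76), and overlaps them in TPM (39.6 to 50.1). In CPM 23.5% of all tested genes separate HFpEF-Veh from Control-Veh, and 25.1% separate HFpEF-TYA-018 from HFpEF-Veh.

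Other measures moved with Rgs5 across the groups. The share of counts from mitochondrially encoded genes was 38.8 ± 1.58% (SD, n = 4) for Control-Veh, 45.1 ± 2.06% for HFpEF-Veh and 38.9 ± 2.65% for HFpEF-TYA-018. The summed level of 6 endothelial markers was between 704 and 802 CPM in Control-Veh, 853 and 1033 in HFpEF-Veh, and 670 and 827 in HFpEF-TYA-018, with 3 of 6 called higher in the first comparison and 3 of 6 called lower in the second. In TPM the same sum was 153 to 163, 140 to 174 and 155 to 235, where the groups overlapped. Of 6 fibroblast markers, 2 were called higher and then 3 lower, with sums of 569 to 973, 923 to 1335 and 600.4 to 944 CPM. Of 4 macrophage markers tested, 4 were called higher and then 2 lower. All 5 red cell genes were called higher (median log2 fold change 2.14) and then lower (-1.46), and their sum was 2020 ± 345, 8203 ± 4159 and 2911 ± 569 CPM. Of 6 cardiomyocyte markers, 4 were called lower in the first comparison and 2 higher in the second. No list had a marker at 0 in all 12 libraries. The exact permutation tests of the 36 comparisons of totals, mitochondrial share and summed TPM gave a smallest adjusted p of 0.0935 (4 against 4 libraries, two-sided, smallest possible unadjusted p 0.0286). The part of these cell types, of the mitochondrial share and of blood in the Rgs5 values was not tested.

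Among the contractile genes, none of 5 passed the test in any comparison. In HFpEF-Veh against Control-Veh 4 of 5 had a negative log2 fold change, with a median of -0.28 beside -0.01 over all tested genes, and 2 of the 5 had an unadjusted p under 0.05, as did 5093 of the 14333 tested genes. In HFpEF-TYA-018 against HFpEF-Veh 5 of 5 were positive, between 0.03 and 0.53, with a median of 0.16 beside 0.00 over all tested genes. In HFpEF-TYA-018 against Control-Veh the median was -0.05 beside -0.02 over all tested genes. These counts are descriptions, since the 5 genes are read from the same cells and libraries.

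Acta2 encodes smooth muscle alpha-actin, the main actin of contractile smooth muscle and of myofibroblasts, on chromosome 19 (34241090 to 34255590, minus strand). Its level was 56.7, 128, 94.1 and 123 CPM in C1 to C4. The HFpEF-Veh libraries held 140, 109, 107 and 89.3, and the HFpEF-TYA-018 libraries 125, 117, 100.4 and 114, in order. The groups overlapped, and C1 lay well below the other 3 Control-Veh libraries. The log2 fold change was 0.15 ± 0.21 in HFpEF-Veh against Control-Veh (interval -0.31 to 0.61, adjusted p 0.661, edgeR) and 0.03 ± 0.21 in HFpEF-TYA-018 against HFpEF-Veh (interval -0.43 to 0.50, adjusted p 0.927). Without C1 the first value was -0.05, so its sign rested on that library.

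Myh11 encodes smooth muscle myosin heavy chain, a marker of mature smooth muscle, on chromosome 16 (14194535 to 14291372, minus strand). Its level was 48.4, 71.0, 48.0 and 64.8 CPM in C1 to C4. The 4 HFpEF-Veh libraries held 51.2, 47.0, 26.5 and 46.4, and the 4 HFpEF-TYA-018 libraries 45.1, 47.1, 39.6 and 59.7, in order. V3 was the lowest of all 12 libraries, and V1 alone of HFpEF-Veh lay inside the range of Control-Veh. The log2 fold change was -0.44 ± 0.20 in HFpEF-Veh against Control-Veh (interval -0.88 to -0.0033, unadjusted p 0.0485, adjusted p 0.138, edgeR) and 0.16 ± 0.20 in HFpEF-TYA-018 against HFpEF-Veh (adjusted p 0.611). In TPM the levels of Myh11 were 3.72 to 5.56 in Control-Veh, 1.99 to 3.22 in HFpEF-Veh and 3.37 to 5.09 in HFpEF-TYA-018. HFpEF-Veh overlapped neither other group there, and the share of all tested genes that separate in TPM was not computed. The limma test on log2(TPM + 1) gave an adjusted p of 0.103 in HFpEF-Veh against Control-Veh. With library totals in place of TMM the first comparison passed (-0.55, adjusted p 0.0446), on a scale where the median of all tested genes was -0.12.

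Cnn1 encodes calponin, an actin-binding protein of differentiated smooth muscle, on chromosome 9 (22099216 to 22109630, plus strand). Its level was 1.18, 4.25, 3.28 and 2.15 CPM in C1 to C4. The 4 HFpEF-Veh libraries held 1.81, 1.57, 1.504 and 1.20, and the 4 HFpEF-TYA-018 libraries 2.35, 1.85, 1.62 and 2.95, in order. These levels rest on 68.7 to 263 estimated counts a library. C1 was the lowest Control-Veh library, as for Acta2, and lay under all 4 HFpEF-Veh libraries. The log2 fold change was -0.83 ± 0.33 in HFpEF-Veh against Control-Veh (interval -1.56 to -0.11, unadjusted p 0.0271, adjusted p 0.0920, edgeR) and 0.53 ± 0.33 in HFpEF-TYA-018 against HFpEF-Veh (adjusted p 0.291). Without C1 the first comparison passed, at -1.08 with an adjusted p of 0.0116, without C2 it gave -0.53 with an adjusted p of 0.286, and DESeq2 on all 12 libraries gave an adjusted p of 0.0485.

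Tagln encodes transgelin (SM22), an actin-bundling protein expressed early in smooth muscle, on chromosome 9 (45929619 to 45936058, minus strand). Its level was 29.8, 57.1, 33.8 and 51.5 CPM in C1 to C4. The HFpEF-Veh libraries held 37.9, 37.7, 30.0 and 35.8, and the HFpEF-TYA-018 libraries 47.4, 39.5, 31.3 and 51.9, in order. All HFpEF-Veh libraries lay within the range of Control-Veh, and the log2 fold changes were -0.28 ± 0.21 (adjusted p 0.345) and 0.27 ± 0.21 (adjusted p 0.391) in the first 2 comparisons. Smtn encodes smoothelin, a filament protein of contractile smooth muscle with a longer form in vessels, on chromosome 11 (3517523 to 3540612, minus strand). It was 132 to 156 CPM in Control-Veh, 127 to 141 in HFpEF-Veh and 111 to 164 in HFpEF-TYA-018. Its log2 fold changes were -0.12 ± 0.11 (adjusted p 0.475) and 0.07 ± 0.11 (adjusted p 0.713), with intervals of -0.35 to 0.12 and -0.17 to 0.30. The effective length of Smtn was 958 to 1432 bases, while the median of its 10 annotated transcripts was 3020 bases, and the files do not say which transcripts the reads came from.

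**Figure D3:**
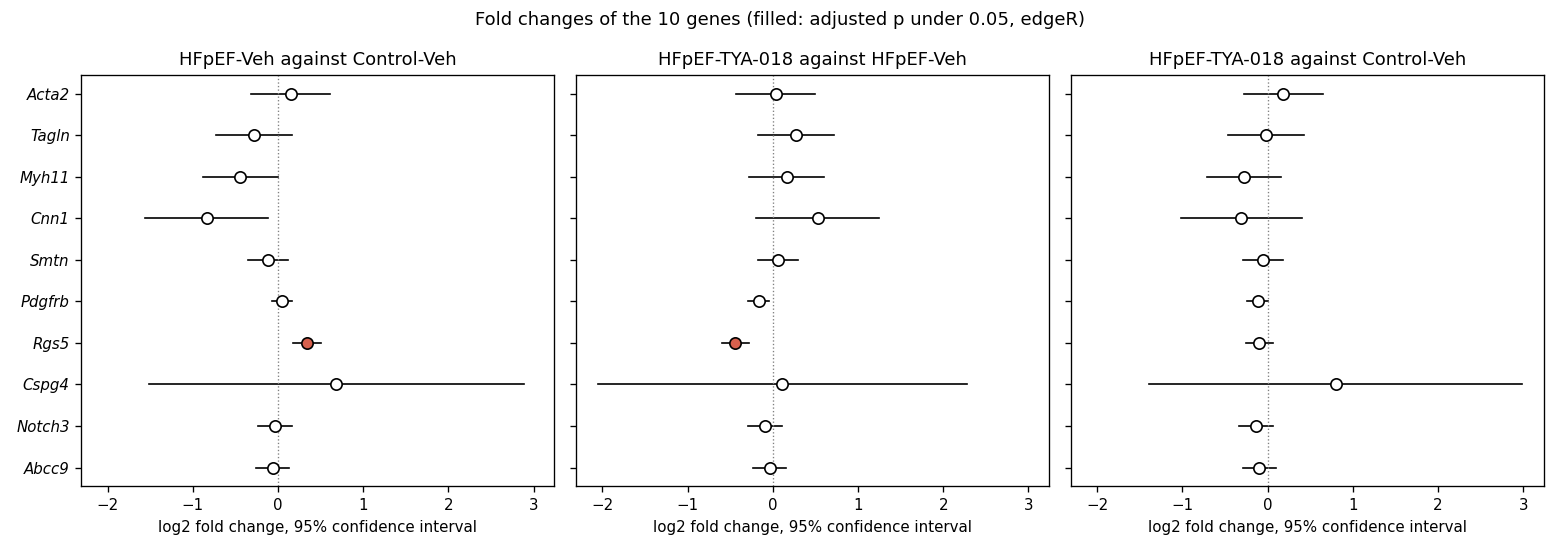
Log2 fold change (horizontal axis) of each of the 10 genes in the 3 comparisons, with 95% confidence intervals (lines). The filled points mark an edgeR adjusted p under 0.05, which Rgs5 reached in the first 2 comparisons (0.34 and -0.44), and the intervals of the 5 contractile genes are wider than those of Pdgfrb, Notch3 and Abcc9.

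Pdgfrb encodes the receptor for PDGF-B and PDGF-D that recruits and holds pericytes, on chromosome 18 (61045150 to 61085061, plus strand). Its level was 63.8, 64.4, 59.5 and 61.7 CPM in C1 to C4. The HFpEF-Veh libraries held 66.5, 64.6, 61.7 and 65.0, and the HFpEF-TYA-018 libraries 60.2, 57.0, 52.6 and 60.0, in order. The HFpEF-TYA-018 libraries all lay below the HFpEF-Veh libraries, a separation that 25.1% of all tested genes showed in that comparison. The corresponding shares were 23.5% in HFpEF-Veh against Control-Veh and 14.8% in HFpEF-TYA-018 against Control-Veh. The log2 fold change was 0.05 ± 0.055 in HFpEF-Veh against Control-Veh (interval -0.07 to 0.17, adjusted p 0.584, edgeR) and -0.17 ± 0.055 in HFpEF-TYA-018 against HFpEF-Veh (interval -0.29 to -0.04, unadjusted p 0.0111, adjusted p 0.0549). The second value passed under RLE scaling (adjusted p 0.0476), DESeq2 (0.0185), the effective length offset (0.0419) and without T4 (0.0497), its sign turned on log2(TPM + 1) (0.14, adjusted p 0.431), where the median of all tested genes was 0.17, and on the rescaled TPM it was -0.28 (adjusted p 0.0676). Against Control-Veh the HFpEF-TYA-018 value was -0.12 ± 0.055 (adjusted p 0.2304).

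Notch3 encodes the Notch receptor of arterial smooth muscle and pericytes, on chromosome 17 (32120820 to 32166852, minus strand). Its level was 36.9 to 44.3 CPM in Control-Veh, 32.9 to 43.6 in HFpEF-Veh and 32.8 to 39.7 in HFpEF-TYA-018, and the groups overlapped. Its log2 fold changes were -0.04 ± 0.092 (interval -0.23 to 0.16) and -0.10 ± 0.092 (interval -0.29 to 0.10), with adjusted p values of 0.820 and 0.499 (edgeR). Abcc9 encodes SUR2, the sulfonylurea receptor subunit of potassium channels that open when ATP is low, on chromosome 6 (142587862 to 142702315, minus strand), and it is used by cardiomyocytes as well as by mural cells. Its level was 128 to 173 CPM in Control-Veh, 133 to 158 in HFpEF-Veh and 132 to 151 in HFpEF-TYA-018. Its log2 fold changes were -0.06 ± 0.088 (interval -0.25 to 0.13) and -0.03 ± 0.088 (interval -0.23 to 0.16), with adjusted p values of 0.663 and 0.820. For these 2 genes the intervals leave room for changes of up to about 0.3 on the log2 scale in either comparison.

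Cspg4 encodes the NG2 proteoglycan, a pericyte surface marker, on chromosome 9 (56865033 to 56899870, plus strand). It was 1.72, 0.29, 4.46 and 0.79 CPM in C1 to C4. The HFpEF-Veh libraries held 6.19, 0.13, 0.47 and 4.91, and the HFpEF-TYA-018 libraries 4.21, 0.65, 3.74 and 4.03, in order. These values rest on 8.08 to 396 estimated counts, which were not whole numbers in any of the 12 libraries, and libraries of the same group differed by far more than the groups did. The log2 fold changes were 0.69 ± 1.01 (interval -1.51 to 2.88) and 0.11 ± 1.00 (interval -2.06 to 2.28), so a difference in Cspg4 was not detectable here. Its effective length was 12031 to 16358 bases, beyond the longest annotated transcript of 8121 bases in GENCODE M21, and no stretch of 31 bases in its transcripts was shared with another gene there.

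Levels of different genes can be compared only per length, in TPM. For Rgs5, Acta2, Tagln, Abcc9, Notch3, Cnn1 and Cspg4 the effective length exceeded the longest transcript of GENCODE M21 in some or all libraries. The order below rests on those lengths. Over the 12 libraries the order by mean TPM was Rgs5 (43.5), Smtn (43.0), Acta2 (17.4), Tagln (6.91), Abcc9 (5.99), Pdgfrb (4.47), Myh11 (3.85), Notch3 (1.39), Cnn1 (0.190) and Cspg4 (0.0648). Rgs5 exceeded Smtn in 7 of 12 libraries, so these 2 do not differ beyond their spread. The order of their group means turned, with 43.1 and 42.5 in Control-Veh, 44.8 and 32.5 in HFpEF-Veh, and 42.7 and 54.0 in HFpEF-TYA-018. Pdgfrb was likewise below Myh11 in Control-Veh (4.41 and 4.53) and above it in HFpEF-Veh (4.20 and 2.78) and HFpEF-TYA-018 (4.81 and 4.22). The ranges of each gene and the next overlapped everywhere in this order except between Notch3 (0.958 to 2.28) and Cnn1 (0.0786 to 0.362). Rgs5 stood at percentile 96.2 of all tested genes and Cspg4 at percentile 10.0. Library T1 had the highest TPM of the 12 for 9 of the 10 genes, the exception being Myh11 in C2. On log2(TPM + 1) the median of all tested genes was also raised, at 0.17 in HFpEF-TYA-018 against HFpEF-Veh. On the CPM scale T1 was the highest of the 12 for Smtn alone, and V1 was the highest HFpEF-Veh library for all 10 genes. How often T1 or V1 was the highest over all tested genes was not counted.

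**Figure D4:**
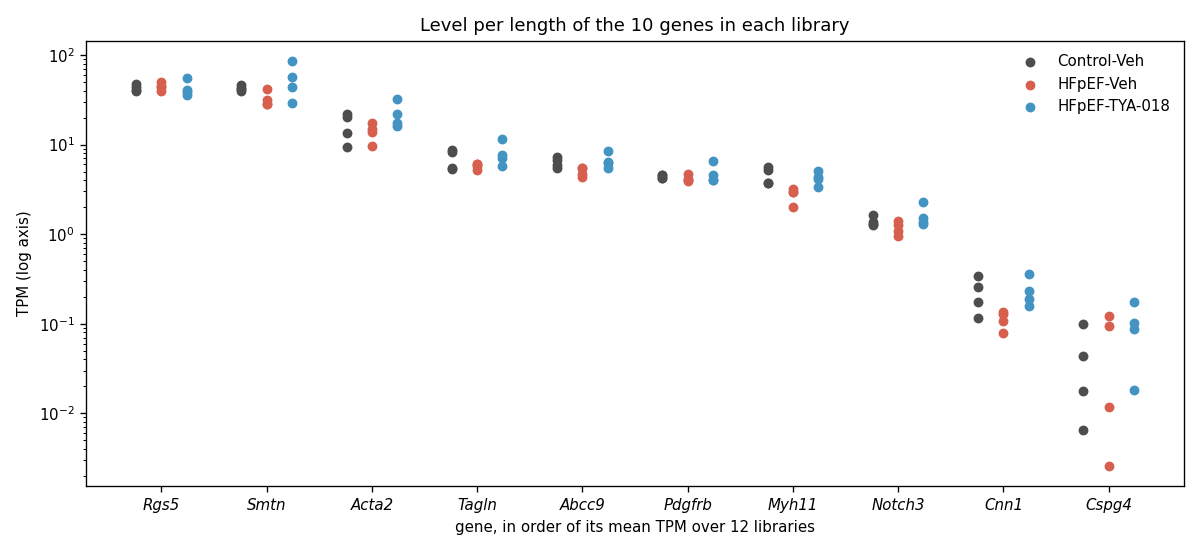
TPM (log axis) of the 10 genes in each of 12 libraries, coloured by group and ordered by the mean over all libraries. Rgs5 and Smtn overlap at the top (means 43.5 and 43.0), and a gap with no overlap lies between Notch3 and Cnn1.

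Some of these counts are not whole numbers. Estimated counts were whole numbers (within 0.01) in 12 of 12 libraries for Smtn, Pdgfrb and Rgs5 and in 10 of 12 for Notch3. They were whole in 2 libraries for Myh11, in 1 for Cnn1 and in 0 for Acta2, Tagln, Cspg4 and Abcc9, so part of the reads of these genes was divided by the authors' quantification. In the GENCODE M21 transcripts, 1.39% of the stretches of 31 bases in Acta2, 0.905% in Myh11 (shared mostly with the non-muscle myosin gene Myh9), 1.35% in Notch3, 1.41% in Abcc9 and 0.0664% in Rgs5 occurred in another gene. Smtn and Pdgfrb shared 0% there, as did Tagln, Cnn1 and Cspg4, whose counts were fractional in most or all libraries. Why the reads of Tagln, Cnn1 and Cspg4 were divided was not tested. Tagln, Smtn, Notch3 and Abcc9 overlap a gene on the opposite strand (Pcsk7 for Tagln). The library kit keeps strand, and whether the quantification used it is not given in the sources used here.

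The related genes that follow are given on the CPM scale, and many of their calls depended on it. Of 60 values of the named related genes over the 3 comparisons, 18 lost their call and 5 changed sign with effective length as an offset, and 22 lost their call and 17 changed sign on log2(TPM + 1). On the rescaled TPM 21 of 57 lost their call and 6 changed sign. These scales were added for the related genes after their values were seen. Fewer than 60 of the values were called on the CPM scale, and most of those calls were lost on each of these other scales. A value that changed sign was counted only as that, also where its call was lost, as for Mcam in the second comparison.

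Of 12 tested genes that act with the contractile apparatus, 1 was called higher and 1 lower in each of the first 2 comparisons, with medians of -0.17 and 0.02. With the length offset and on the rescaled TPM 0 of the 12 were called in either comparison. Cald1, which encodes the actin-binding protein caldesmon, rose by 0.38 ± 0.11 in HFpEF-Veh (adjusted p 0.0257, edgeR) and fell by 0.45 ± 0.11 in HFpEF-TYA-018 against HFpEF-Veh (adjusted p 0.0138). It was 34.1 to 43.5 CPM in Control-Veh, 44.5 to 54.4 in HFpEF-Veh and 30.9 to 43.3 in HFpEF-TYA-018. Des, which encodes the intermediate filament desmin and is abundant in cardiomyocytes, fell by 0.28 (adjusted p 0.0187) and rose by 0.27 (adjusted p 0.0246). Ppp1r12b, a subunit of myosin phosphatase used in striated muscle, gave -0.19 and 0.17 (adjusted p 0.0622 and 0.0908).

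Among the 10 tested regulators of contractile genes, 3 were called higher and 0 lower in HFpEF-Veh against Control-Veh, and 2 higher and 2 lower in HFpEF-TYA-018 against HFpEF-Veh. On the rescaled TPM 5 of 8 were called higher in the first comparison, and on log2(TPM + 1) 0 of 10. Srf encodes serum response factor, which binds the CArG box of smooth muscle promoters and of its own. The 100 bases before its start, from RefSeq on GRCm38.p6, show 2 such boxes in capitals, with only A and T in the run. They are printed for comparison with Acta2, whose 2 marked boxes each have 1 other base. By the annotation of GENCODE M21, 13 of the 100 bases lie within Srf.
Srf, minus strand, chr17:46556163-46556262: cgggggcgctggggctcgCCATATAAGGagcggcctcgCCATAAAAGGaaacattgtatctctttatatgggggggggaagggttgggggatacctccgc
The boxes began at positions -82 and -62. In the 250 bases before the start, 1.47% of all 32851 promoters held a strict CArG box, 8.59% held one with up to 1 such base, and 21.6% held TGGGAA on either strand. Of the 7 members with a promoter in the table, 0 held the strict form and 1, Acta2, held the looser form. The RBPJ core was present in 3 of the 7 (Acta2, Smtn and Abcc9). The absence of these letters from this window says nothing of sites farther away.

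Srf was 27.1 to 32.5 CPM in Control-Veh, 34.5 to 48.9 in HFpEF-Veh and 36.3 to 39.99 in HFpEF-TYA-018. It rose by 0.54 ± 0.096 in HFpEF-Veh (adjusted p 0.00291, edgeR), and its level in HFpEF-TYA-018 gave -0.12 against HFpEF-Veh (adjusted p 0.398) and was higher than Control-Veh by 0.42 (adjusted p 0.0288). Klf4 encodes a zinc finger factor that represses contractile genes when smooth muscle cells change state. It was 45.2 to 66.0 CPM in Control-Veh and 92.0 to 102 in HFpEF-Veh, a rise of 0.72 ± 0.12 (adjusted p 0.00191), and 67.1 to 89.7 in HFpEF-TYA-018 (-0.35, adjusted p 0.0518). Tgfb1i1, which encodes the focal adhesion protein Hic-5, rose by 0.27 (adjusted p 0.0459) and fell by 0.38 (adjusted p 0.0111). These 3 genes are expressed in many cell types, and the values do not say which cells carried the change. The 2 regulators called higher in the second comparison went the other way. Myocd gave -0.19 (not called) and rose by 0.52 (adjusted p 0.0281, edgeR). Csrp2, at most 1.85 CPM, gave -0.60 (not called) and rose by 1.53 (adjusted p 0.0288).

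The ligands of Pdgfrb and the related receptor were measured beside it. Of 5 tested PDGF genes, 3 were called higher in HFpEF-Veh against Control-Veh, and 1 higher and 2 lower in HFpEF-TYA-018 against HFpEF-Veh. On the rescaled TPM these counts were 1 higher, and 0 higher and 1 lower. Pdgfd encodes a ligand of Pdgfrb and was 5.09 to 7.61 CPM in Control-Veh, 8.04 to 13.9 in HFpEF-Veh and 4.00 to 6.42 in HFpEF-TYA-018. It rose by 0.90 ± 0.19 (adjusted p 0.00673, edgeR) and fell by 1.12 ± 0.19 (adjusted p 0.00302). Pdgfra, the other receptor and a marker of fibroblasts, rose by 0.49 (adjusted p 0.0164) and fell by 0.58 (adjusted p 0.00866). Pdgfa, a ligand of Pdgfra, gave -0.11 (adjusted p 0.416) and rose by 0.32 (adjusted p 0.0261). Pdgfb, which encodes the ligand PDGF-B of Pdgfrb, rose by 0.36 (adjusted p 0.0280, edgeR) and gave -0.19 (adjusted p 0.212). Whether the ligands changed more than Pdgfrb was not tested.

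Of 13 tested Notch genes, 6 were called higher and 0 lower in the first comparison, and 0 higher and 6 lower in the second, with medians of 0.24 and -0.29. With the length offset 1 was called higher in the first comparison and 3 lower in the second. On the rescaled TPM 1 was higher in the first and 1 lower in the second, and on log2(TPM + 1) 0 were called in the first, and 1 higher and 1 lower in the second. Notch4, a receptor of endothelial cells, was 69.4 to 81.0 CPM in Control-Veh, 91.8 to 96.9 in HFpEF-Veh and 64.6 to 73.2 in HFpEF-TYA-018, a rise of 0.38 ± 0.062 (adjusted p 0.00206, edgeR) and a fall of 0.45 (log2 fold change -0.45, adjusted p 0.00140). Jag1, the ligand through which endothelial cells signal to Notch3, rose by 0.30 (adjusted p 0.0210) and fell by 0.52 (adjusted p 0.00207) in CPM, while its mean TPM was 1.56, 1.602 and 1.68 in the 3 groups, and on the rescaled TPM it gave 0.27 (adjusted p 0.228) and -0.36 (adjusted p 0.127). Notch2, a receptor of smooth muscle and other cells, gave 0.03 (adjusted p 0.848) and fell by 0.49 (adjusted p 0.00302), and it was also lower than Control-Veh in HFpEF-TYA-018 (-0.47, adjusted p 0.0104). In TPM Notch2 went the other way, with means of 0.284, 0.223 and 0.277, its mean effective length was 19644, 23336 and 17149 bases, and its fall in the second comparison was not called with the length offset (-0.18, adjusted p 0.310). Many genes of this list belong to endothelial cells, whose summed markers moved the same way on the CPM scale, and the part of that in the values was not tested.

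Of 16 other pericyte markers tested, 5 were called higher and 1 lower in HFpEF-Veh against Control-Veh, 0 higher and 3 lower in HFpEF-TYA-018 against HFpEF-Veh, and 3 higher and 0 lower in HFpEF-TYA-018 against Control-Veh. On the rescaled TPM 4 of 15 were higher and 1 lower in the first comparison and 0 were called in the other 2. Mcam encodes the adhesion molecule CD146 of pericytes and endothelial cells. It was 37.0 to 39.3 CPM in Control-Veh, 46.5 to 59.8 in HFpEF-Veh and 44.4 to 48.1 in HFpEF-TYA-018, with log2 fold changes of 0.52 ± 0.069 (adjusted p 0.000784, edgeR), -0.24 (adjusted p 0.0324) and 0.28 (adjusted p 0.0353) in the 3 comparisons. In TPM the group means of Mcam were 4.38, 5.51 and 6.56, so the sign of the second comparison turned (0.20, adjusted p 0.351), and on the rescaled TPM it was -0.21 (adjusted p 0.285). Ednra, the endothelin receptor of smooth muscle, gave 0.52 (adjusted p 0.00498), -0.13 (adjusted p 0.407) and 0.39 (adjusted p 0.0454). Vtn, which encodes vitronectin, gave 0.37 (adjusted p 0.00502), -0.02 (adjusted p 0.8999) and 0.35 (adjusted p 0.0189). In HFpEF-TYA-018 against Control-Veh 3.12% of all tested genes passed as higher and 2.74% as lower. For Ednra and Vtn the libraries of HFpEF-TYA-018 and HFpEF-Veh overlapped, whereas those of Rgs5 did not. In CPM those of Anpep (-0.94, adjusted p 0.00632, edgeR), Steap4 (-0.40, adjusted p 0.0157) and Enpep (-0.37, adjusted p 0.0968) of this list did not overlap either. The same held for 25.1% of all tested genes in that comparison. In mean TPM none of Anpep, Steap4 and Enpep was lower in HFpEF-TYA-018 than in HFpEF-Veh. Those means were, in HFpEF-Veh and then HFpEF-TYA-018, 0.793 and 1.04 (Anpep), 2.01 and 2.02 (Steap4), and 0.446 and 0.590 (Enpep). Whether the change of these genes differed from that of Rgs5 was not tested.

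Other subunits of ATP-sensitive potassium channels and relatives of Rgs5 were described in the same way. Of the 2 tested channel subunits, Abcc8, the other sulfonylurea receptor, gave -0.33 (adjusted p 0.244, edgeR) and rose by 0.72 (adjusted p 0.0225) to 4.61 to 7.50 CPM. Kcnj11 of the same list did not pass the filter on low counts. Kcnj8, the pore subunit that pairs with Abcc9 in mural cells, was listed at 0 in 5 of 12 libraries (V1, V2, V4, T1 and T2) and lay between 0.190 and 2.15 CPM in the others, with an adjusted p of 0.594 in the first comparison and 0.897 in the second. Of 6 tested genes of the R4 family to which Rgs5 belongs, 1 was called higher and 1 lower in the first comparison and 0 higher and 1 lower in the second. Rgs3 was 41.0 to 43.9 CPM in Control-Veh, 54.5 to 57.2 in HFpEF-Veh and 39.7 to 47.4 in HFpEF-TYA-018, a rise of 0.38 ± 0.061 (adjusted p 0.00169) and a fall of 0.40 (log2 fold change -0.40, adjusted p 0.00179). In TPM the group means of Rgs3 were 4.28, 5.65 and 5.76, so HFpEF-TYA-018 was not below HFpEF-Veh on that scale. Of the stretches of 31 bases in Rgs3 transcripts, 12.5% occurred in another gene. Rgs2, which limits vasoconstrictor signalling in smooth muscle, fell by 0.56 (adjusted p 0.0328) and gave 0.30 (adjusted p 0.238). Rgs18, a gene of platelets, was at most 0.674 CPM and gave 1.09 (adjusted p 0.0842) and -0.46 (adjusted p 0.464).

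**Figure D5:**
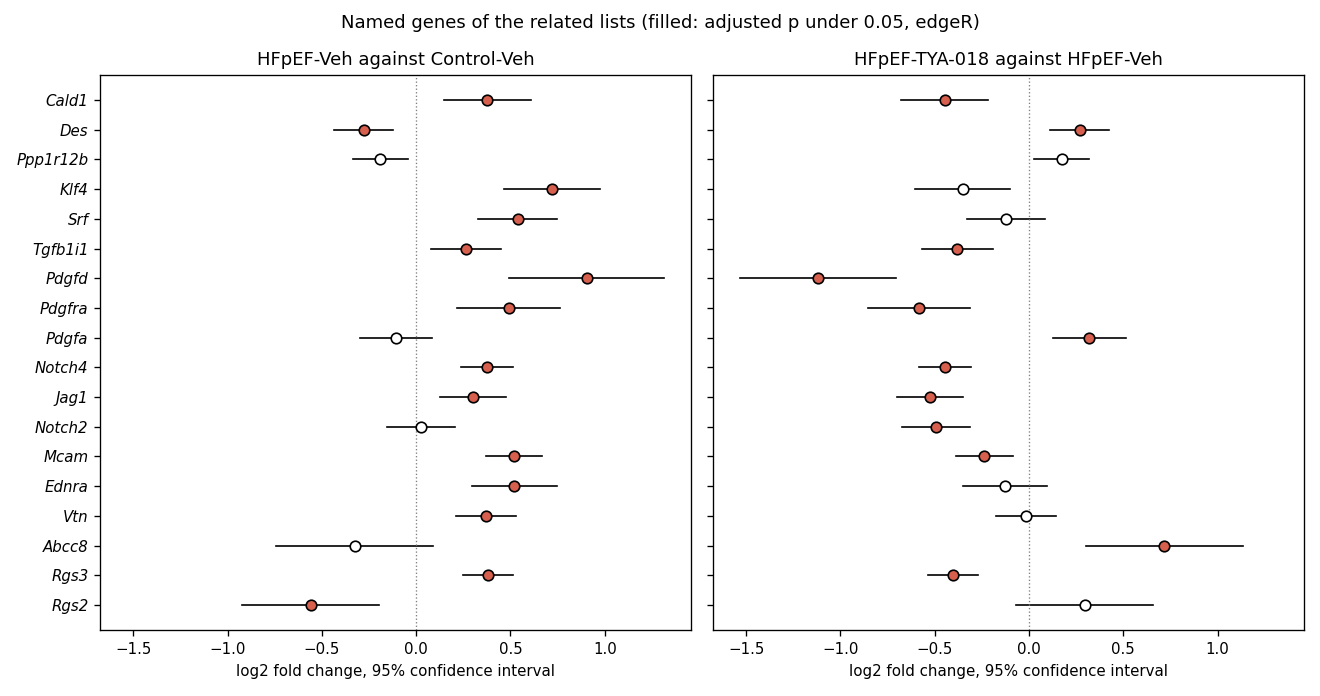
Log2 fold change (horizontal axis) with 95% confidence intervals (lines) of the named genes of the related lists in the first 2 comparisons, without Kcnj8 and Rgs18, whose levels were near 0. Filled points mark an edgeR adjusted p under 0.05. Pdgfd has the longest excursion (0.90 and -1.12), and Klf4, Srf, Ednra, Vtn and Rgs2 are filled in the first comparison and open in the second.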

How the data were processed

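Left ventricular RNA of 12 mice (4 per group, grouped by the sample labels) was analysed from 3 deposited tables. The authors quantified reads with salmon (1.6.0 per the submitters' processing notes) after fastp trimming, with bias correction, and summarised transcripts to genes with tximport on GENCODE transcripts of GRCm38. The processing notes name a human build instead, and the labels and the study's methods differ on read layout and depth. The deposited estimated counts were not normalised and summed to 61.2 to 83.9 M per library. The deposited TPM values and the deposited effective lengths (in bases, another kind of value) were made by the same tools. Columns of the tables left unused numbered 0.

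After rounding, estimated counts entered edgeR 4.0.16 (R 4.3.3) with filterByExpr (14333 genes, 99.98% of counts), TMM scaling (trimmed mean of M values) and 1 quasi-likelihood model of the 12 libraries (9 residual degrees of freedom, two-sided F tests, Benjamini-Hochberg). The model was tested on simulated data. Alternatives used DESeq2 1.42.0, limma 3.58.1, other scalings and filters, and each library left out. Coordinates and shared sequence came from GENCODE M21 and promoters from RefSeq (7 of 10 genes had one). The labels give no batch, and since the animal numbers of a group lay together, effects of cage or handling order and of treatment cannot be told apart.

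The 10 genes and the related lists were chosen with earlier results of these data known. All 10 are named, and from each related list the 3 genes with the smallest p in the first or second comparison. Myocd, Csrp2, Pdgfb, Anpep, Steap4 and Enpep were given outside this rule, and their fold changes on the other scales are not given.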

Additional observations from a re-analysis of the deposited data

Results flagged for a closer look

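Cspg4 in library T2 of HFpEF-TYA-018 was 0.647 CPM, while the other 3 libraries of the group lay between 3.74 and 4.21 CPM. The gap to the nearest library was 0.868 of the range of the group, above the limit of Dixon's test for 4 libraries. Chance flags about 1 in 20 groups, and 30 groups (10 genes in 3 groups) were looked at. The counts of Cspg4 were fractional in all 12 libraries and ranged as widely in the other 2 groups.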

How the results depend on the processing

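The number of the 10 genes called in HFpEF-Veh against Control-Veh was 1 (Rgs5), and was 2 (with Cnn1) by DESeq2, 0 with effective length as an offset, 0 on log2(TPM + 1), 0 on log2(TPM + 0.1) and 0 on rescaled log2(TPM + 1), where Rgs5 kept its size (0.32, adjusted p 0.0520), and 1 to 2 with each library left out. With library totals alone it was also 1, but the gene was Myh11, and Rgs5 gave 0.23 (adjusted p 0.0653, 0.35 above the median of all genes). In HFpEF-TYA-018 against HFpEF-Veh it was 1 (Rgs5), and was 2 (with Pdgfrb) by DESeq2, RLE scaling and the effective length offset, 0 on both TPM scales without rescaling, and 1 to 2 with each library left out. In HFpEF-TYA-018 against Control-Veh it was 0 under every alternative. Rgs5 was called in 8 of 8 fits with a library left out in each of the first 2 comparisons (0.32 to 0.37, and -0.49 to -0.38), and under 5 and 8 of 10 other alternatives. The cause of these differences was not tested.

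Of 540 values of single genes under an alternative, 474 kept their direction and side of the threshold, 7 gained a call, 7 lost one (all Rgs5) and 52 changed sign, none of them a called value. In HFpEF-Veh against Control-Veh these were Pdgfrb with library totals (-0.060) and on the TPM scales with pseudocount 1 (-0.057) and 0.1 (-0.069), Acta2 with the length offset (-0.018) and on the same 2 scales (-0.16 and -0.17), and on the rescaled TPM Tagln (0.033) and Notch3 (0.0098). In HFpEF-TYA-018 against HFpEF-Veh they were Notch3 (0.038) and Abcc9 (0.097) with library totals, Pdgfrb, Notch3 and Abcc9 on TPM with pseudocount 1 (0.14, 0.26 and 0.33) and 0.1 (0.16, 0.41 and 0.38), and Tagln on the rescaled TPM (-0.023). In HFpEF-TYA-018 against Control-Veh they were Tagln with library totals (0.021), Smtn with the length offset (0.038), Tagln, Cnn1, Smtn, Pdgfrb, Notch3 and Abcc9 on TPM with pseudocount 1 (0.18, 0.015, 0.23, 0.083, 0.12 and 0.046) and 0.1 (0.20, 0.070, 0.24, 0.096, 0.18 and 0.051), and Tagln (0.011) and Smtn (0.045) on the rescaled TPM. With each library left out, the ranges that crossed 0 were, in the first comparison, Acta2 -0.047 to 0.29, Notch3 -0.095 to 0.038 and Abcc9 -0.13 to 0.0093. In the second they were Acta2 -0.058 to 0.16, Myh11 -0.011 to 0.26, Smtn -0.012 to 0.17, Cspg4 -0.28 to 0.79 and Abcc9 -0.074 to 0.0099, and in the third Acta2 -0.012 to 0.32, Tagln -0.16 to 0.15 and Smtn -0.13 to 0.053.

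Named related genes changed sign as follows (scales added after their values were seen). In the first comparison they were Ppp1r12b (0.093), Notch2 (-0.13) with the length offset, and Notch2 (-0.070) on log2(TPM + 1), and Ppp1r12b (0.13), Notch2 (-0.054) on the rescaled TPM. In the second they were Ppp1r12b (-0.11) with the length offset, and Klf4 (0.25), Srf (0.19), Jag1 (0.038), Notch2 (0.060), Mcam (0.20), Ednra (0.28), Vtn (0.30), Rgs3 (0.018), Rgs18 (0.0081) on log2(TPM + 1), and Ppp1r12b (-0.13) on the rescaled TPM. In the third they were Des (0.26), Rgs3 (0.17) with the length offset, and Cald1 (0.16), Des (0.49), Ppp1r12b (0.17), Tgfb1i1 (0.078), Pdgfra (0.061), Jag1 (0.061), Rgs3 (0.34) on log2(TPM + 1), and Des (0.30), Ppp1r12b (0.0094), Rgs3 (0.20) on the rescaled TPM.

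Over all tested genes, 3033, 2767 and 840 were called in the 3 comparisons, beside 1444, 1221 and 206 with the length offset, 172 (51 higher) in the first and 9 in the third on log2(TPM + 1), 301 (93 higher), 2618 (2548 higher) and 11 on log2(TPM + 0.1), and 1055, 742 and 94 on rescaled log2(TPM + 1). On log2(TPM + 1) the second comparison had 2228 higher and 68 lower calls. With library totals alone 737 of 2984 calls were higher in the first comparison, and 2462 were higher and 623 lower in the second, against 1561 higher and 1472 lower, and 1280 higher and 1487 lower, with TMM. On the rescaled TPM 649 were higher and 406 lower in the first comparison. In the third, DESeq2 called 1514 and library totals 324 genes. With a library left out the counts ran from 1986 to 3992, 1485 to 3251 and 308 to 809. No paired analysis was possible because the groups have no animal number in common. Rgs5 had at least 26894 estimated counts in each library, Cnn1 at least 68.7 and Cspg4 at least 8.08, so precision from depth was lowest for Cspg4.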
